A study of Mus musculus with 13 samples.

Results

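The genes described here are those that encode the protein components of the cytosolic ribosome in the mouse sciatic nerve. They were taken as the protein-coding genes whose symbols start with Rpl or Rps followed by a number, together with the stalk genes Rplp0, Rplp1 and Rplp2 and with Rpsa, and they were kept where at least 50 counts were present in at least 2 of the 13 libraries. Of 83 candidates, 80 passed, out of 40787 genes in the table, and they comprised 48 genes of the large subunit and 32 of the small subunit. The 3 that did not pass, Rpl3l, Rpl10l and Rpl39l, are paralogues known mainly from muscle and testis, and their highest counts in any library were 1, 0 and 2.

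RNA was sequenced from whole sciatic nerve, cleaned of its epineurium, at 5 days post crush (dpc), from the injured side distal to the lesion and from the uninjured contralateral side. Both genotypes carried 2 floxed alleles of Rptor, which encodes the mTORC1 subunit Raptor, on a C57BL/6 background, and both received tamoxifen at 2 months of age. RaptorKO mice also carried a tamoxifen-inducible Cre that is active in the Schwann cells (SCs) of nerves, whereas control mice carried no Cre. The other cells of the tissue keep Rptor and are part of every library. The crush was made 2 months after tamoxifen. The 4 groups were control contralateral (n = 3), RaptorKO contralateral (n = 4), control injured (n = 3) and RaptorKO injured (n = 3).

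A ribosome contains 1 copy of nearly every one of these proteins, so cells make them in matched amounts. Most of their mRNAs begin with a terminal oligopyrimidine (TOP) tract, a C followed by a run of pyrimidines at the cap, and translation of such mRNAs is known to depend strongly on mTORC1, in part through the TOP-binding protein Larp1 (a cap-binding repressor). Rps6, a component of the small subunit, is itself the classical phosphorylation target of the S6 kinases downstream of mTORC1. The values below are levels of RNA, not of translation or of protein.

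Start sites were examined because the TOP tract is the sequence feature that links these genes to mTORC1. RefSeq promoters (GRCm38.p6) were at hand for 60 of the 80 genes, and 29 of these 60 (48.3%) had at least 1 annotated start with a TOP-like tract, defined as a C no more than 5 bases from the annotated start and followed by at least 4 pyrimidines on the sense strand. The same letters were found at 5718 of 27025 genes in the promoter table (21.2%). The windows below run from 10 bases before the annotated start through 20 bases from it, with the TOP-like tract in capitals. They show Rps6, Rpl13a and Rps18, which had such a tract and were called higher in RaptorKO nerves, Rpl4, which was called higher with no tract within this distance, the pair Rps27 and Rps27l, of which only the first was called in contralateral nerves, and Rpl7l1, which was not called.
Rps6 (chr4:86857348-86857377, minus strand): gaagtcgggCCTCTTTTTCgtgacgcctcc
Rpl13a (chr7:45128726-45128755, minus strand): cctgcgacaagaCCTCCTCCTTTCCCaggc
Rps18 (chr17:33955646-33955675, minus strand): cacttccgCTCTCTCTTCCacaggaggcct
Rpl4 (chr9:64173377-64173406, plus strand): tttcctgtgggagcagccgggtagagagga
Rps27 (chr3:90213629-90213658, minus strand): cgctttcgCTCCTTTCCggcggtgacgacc
Rps27l (chr9:66946076-66946105, plus strand): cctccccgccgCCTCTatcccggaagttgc
Rpl7l1 (chr17:46782637-46782666, minus strand): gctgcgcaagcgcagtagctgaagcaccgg

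Library totals ranged from 8200458 to 13581775 counts. Rptor itself, counted over the whole gene, was lower in every RaptorKO library than in every control library of the same side. Contralateral control nerves held 52.1, 52.5 and 43.7 counts per 1000000 (CPM) of Rptor, and RaptorKO contralateral nerves held 24.4, 22.1, 28.0 and 23.3. In injured nerves the values were 42.8, 48.6 and 35.1 in controls and 26.1, 23.2 and 28.6 in RaptorKO. The log2 fold change was -0.998 ± 0.12 (SE; edgeR quasi-likelihood test, adjusted p = 5.00e-04) on the contralateral side and -0.68 ± 0.15 (adjusted p = 0.0167) on the injured side. The 2 libraries numbered 3 in the control groups stood apart from the other 11 in sex-linked genes, and without them 73 genes were called higher in the contralateral and 43 in the injured genotype comparison, beside 74 and 56 with them. In contralateral nerves 2 of 9 SC and myelin markers, S100b among them, were called lower in RaptorKO. All 9 had a log2 fold change below 0, with a median of -0.22. Their summed level was 85565 to 94727 CPM in control and 73094 to 89825 CPM in RaptorKO libraries, ranges that overlapped. The defining myelin gene Mbp was abundant in all 7 libraries and had the value closest to 0, at -0.006.

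The 80 genes took up a small share of each library, and that share differed between groups. Contralateral control nerves gave 1.54, 1.49 and 1.64% of all counts to them, and RaptorKO contralateral nerves gave 2.91, 3.11, 2.86 and 2.72%. In injured nerves the share was 2.77, 3.19 and 3.25% in controls and 4.61, 4.97 and 4.03% in RaptorKO. The means were thus 1.55% ± 0.076 (SD, n = 3), 2.90% ± 0.16 (n = 4), 3.07% ± 0.26 (n = 3) and 4.54% ± 0.48 (n = 3). Uninjured RaptorKO nerves and injured control nerves overlapped, whereas control contralateral libraries lay below all others and RaptorKO injured libraries above all others. The share depends on what else is in the library, and without the mitochondrially encoded genes and the 10 other most abundant genes the same means were 1.96, 3.59, 3.62 and 5.30%.

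**Figure D1:**
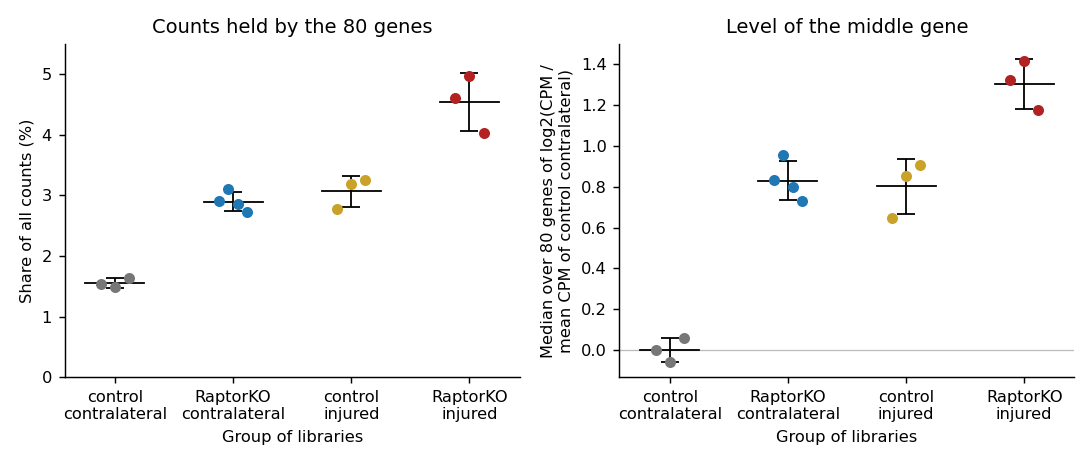
Share of all counts held by the 80 ribosomal protein genes (left, percent, linear axis from 0) and the median over the 80 genes of log2 CPM relative to the mean of control contralateral nerves (right), by group. Points are libraries, horizontal bars are means and vertical bars are ± SD; the control contralateral share was 1.55% and the RaptorKO injured share 4.54%.

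The first comparison asked how loss of Raptor in SCs changed these genes in the uninjured, contralateral nerve. They rose almost as a block: 74 of the 80 were called higher in RaptorKO nerves and 0 lower, where called means a Benjamini-Hochberg adjusted p below 0.05 over all tested genes and a change of more than 1.2-fold. Of all 11878 genes tested, 4.49% were called higher and 5.68% lower. The median log2 fold change over the 80 genes was 0.85, or 1.80-fold, with quartiles at 0.76 and 0.93, beside a median of 0.01 over all tested genes. The value was above 0 for 79 of the 80 genes, and for 80 when libraries were scaled by their totals, under which Rpl27 turned. In bulk tissue, more RNA of these genes per cell and more cells that are rich in them cannot be told apart.

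Markers of some other cells moved with genotype on this side as well. Of the macrophage markers, 4 of 6 tested were higher in RaptorKO, with a summed level of 139 to 155 CPM over the list in control and 231 to 283 CPM in RaptorKO libraries. Of the fibroblast markers 3 of 5 were higher (5706 to 6496 and 8251 to 10804 CPM), and of the mast cell markers 2 of 5 (12.2 to 60.0 and 82.0 to 141 CPM). Of the erythrocyte markers 2 of 4 tested were higher (73.6 to 138.6 and 139.03 to 254.9 CPM). Of the proliferation markers 1 of 2 tested, Mki67, was higher, with a log2 fold change of 1.62 (8.64 to 13.9 and 22.2 to 33.9 CPM). Of the pericyte and smooth muscle markers 1 of 5 was higher, with overlapping sums (619 to 684 and 559 to 748 CPM). Of the endothelial markers 0 of 5 were called (326 to 379 and 325 to 443 CPM). Of the adipocyte markers 0 of 4 were called, with sums that varied widely (1.63 to 87.2 and 1.30 to 273 CPM). The T and NK cell, B cell and neutrophil lists summed to under 5 CPM in each of these libraries. The part of these cells in the rise of the ribosomal protein genes was not tested.

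Both subunits had medians close to each other. In the large subunit 44 of 48 genes rose, with a median of 0.84, and in the small subunit 30 of 32 rose, with a median of 0.88. For 75 of the 80 genes every RaptorKO library lay above every control library, beside 9.98% of all genes tested.

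Rps6, the S6 kinase target, stood at 393, 365 and 399 CPM in control and at 741, 754, 740 and 699 CPM in RaptorKO contralateral nerves. The groups did not overlap, and the log2 fold change was 0.95 ± 0.07 (adjusted p = 6.28e-05). Rpl4, a core protein of the large subunit that lines the exit tunnel, was at 660, 622 and 666 CPM in control and between 1282 and 1354 CPM in RaptorKO nerves, a log2 fold change of 1.05 ± 0.07 (adjusted p = 6.08e-05). The lowest RaptorKO library lay far above the highest control library.

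Rps28 and Rpl13a were among the genes with the largest rises. Rps28, a small protein near the mRNA exit of the small subunit, had a log2 fold change of 1.09 ± 0.08 (adjusted p = 6.08e-05) from control libraries that lay between 123 and 124 CPM. It overlaps Kank3 on the opposite strand, as 23 of the 80 genes overlap some gene on the other strand, and whether strand was used in counting was not given in the sources used here. Of those 23 genes 20 were called higher in contralateral nerves, and of the other 57 genes 54, with medians of 0.83 and 0.86. Rpl13a, which is also known for a role outside the ribosome in interferon-responsive translational silencing, had a log2 fold change of 1.08 ± 0.11 (adjusted p = 1.73e-04).

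The stalk proteins, which recruit translation factors to the ribosome, rose together. Their log2 fold changes were 0.76 ± 0.08 for Rplp0, 0.81 ± 0.08 for Rplp1 and 0.87 ± 0.14 for Rplp2, with adjusted p of 2.70e-04, 1.95e-04 and 0.0034. Rpl11, which with Rpl5 forms a particle that can bind and inhibit Mdm2, rose by 0.86 ± 0.09 on the log2 scale (adjusted p = 2.46e-04).

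At the low end of the genes that rose stood, among others, Rpl8, Rpl5, Rpl41, Rps15a, Rpl9, Rpl22, Rps27 and Rpsa, with log2 fold changes between 0.51 and 0.66. Rpsa, which also serves as the laminin receptor precursor at the cell surface, was at 445, 483 and 508 CPM in control and 758, 793, 726 and 710 CPM in RaptorKO nerves. Rps27 was the single called gene whose groups overlapped: control libraries held 219, 214 and 259 CPM and RaptorKO libraries 386, 364, 398 and 249 CPM. Its call (log2 fold change 0.61 ± 0.15, adjusted p = 0.0265) was lost in 4 of 18 alternatives, each of which left out 1 library. The low value was that of RaptorKO contralateral replicate 4, in which the copy Rps27rt, whose match to the coding sequence of Rps27 is 100% identical, held 799 counts beside 1929 of Rps27, or 29.3% of both. In the other 12 libraries the copy held 0.31 to 5.64% of both. With the copy added, contralateral control libraries held 223, 225 and 260 CPM and RaptorKO libraries 390, 372, 412 and 352 CPM, which did not overlap. The log2 fold change was then 0.71 ± 0.09 (adjusted p = 6.04e-04), in a fit, chosen after the data were seen, in which every gene was summed with its copies.

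Of the 6 genes not called in contralateral nerves, 3 were the paralogues Rps27l, Rpl7l1 and Rpl22l1. Rps27l, a target of p53 that can replace Rps27 in the ribosome, was at 16.6, 15.7 and 15.5 CPM in control and 18.0, 17.5, 17.0 and 12.9 CPM in RaptorKO nerves. The groups overlapped, and the log2 fold change was 0.06 ± 0.14 (adjusted p = 0.854). Rpl7l1, an Rpl7-like protein linked to ribosome assembly, was at 30.7, 31.1 and 35.5 CPM against 38.6, 38.6, 38.6 and 36.2 CPM, groups that did not overlap, with a log2 fold change of 0.25 ± 0.10 (adjusted p = 0.154). Rpl22l1, the paralogue of the RNA-binding protein Rpl22, had a log2 fold change of 0.51 ± 0.20 (adjusted p = 0.144), as large as that of some called genes but at 8.19 to 15.0 CPM.

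The share of each paralogue in the counts of the pair does not depend on how libraries are scaled. Rps27l made up 5.65 to 7.02% of Rps27 plus Rps27l in control and 4.09 to 4.93% in RaptorKO contralateral nerves, ranges that did not overlap. The 4.93% was that of replicate 4, and with Rps27rt counted as Rps27 the ranges were 5.62 to 6.90% and 3.54 to 4.48%. For Rpl7l1 and Rpl7 the ranges were 7.84 to 8.66% and 5.55 to 5.93%, again apart. For Rpl22l1 and Rpl22 they were 6.54 to 7.98% and 4.77 to 7.69%, which overlapped.

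The other 3 genes not called, Rpl27, Rpl12 and Rps12, share reads with near-identical copies. Copies were looked for as other annotated transcripts that matched at least 80% of a member's coding sequence at 95% identity or more, and 31 of the 80 genes had at least 1, with 53 copies in all. In 6 genes the copies held more than 50% of the counts of gene and copies together in the median library: Rps12 (97.6%), Rpl12 (96.9%), Rpl5 (92.1%), Rpl10 (91.4%), Rpl27 (89.5%) and Rpl37 (78.1%). The leading copy of 5 of these matched the coding sequence at 100%, and that of Rpl37, Rpl37rt, at 99.7%. Copies held over 10% in 9 genes in all, with Rps7 at 48.6%, Rpl35 at 29.6% and Rpl29 at 11.8%. The leading copies of Rpl29 and Rps26 were transcripts of the protein-coding genes Uimc1 and Med21. Copies were counted by whole gene, so the 11.8% of Rpl29 can include reads of other Uimc1 transcripts. The same holds for sums of such genes with their copies. Where a read matches both loci, RSEM divides it by estimate, so which locus made the RNA cannot be read from these counts.

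The most abundant copy of each of these 6 genes was called higher in RaptorKO contralateral nerves. Rpl27-ps3, a processed pseudogene, was at 971, 1192 and 855 counts in control and 1350, 1872, 1475 and 1285 counts in RaptorKO contralateral libraries, whereas Rpl27 itself was at 169, 146 and 121 and at 93, 219, 118 and 98. The log2 fold change was 0.74 ± 0.09 for Rpl27-ps3 (adjusted p = 6.81e-04) and -0.02 ± 0.20 for Rpl27. With these 6 genes summed with their copies, a step chosen after the data were seen, Rpl27 rose by 0.67 ± 0.09, Rpl12 by 1.06 ± 0.09 and Rps12 by 0.82 ± 0.12 on the log2 scale, with adjusted p of 0.00104, 7.66e-05 and 0.00228. All 3 were then called, for 77 of 80 genes in all, and the 3 that remained were the paralogues named above. The highest value of the comparison also changed: Rpl10, a late-joining protein of the large subunit, went from 1.36 ± 0.35 alone to 1.14 ± 0.07 when summed with its copies, of which Rpl10-ps3 is the most abundant.

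**Figure D2:**
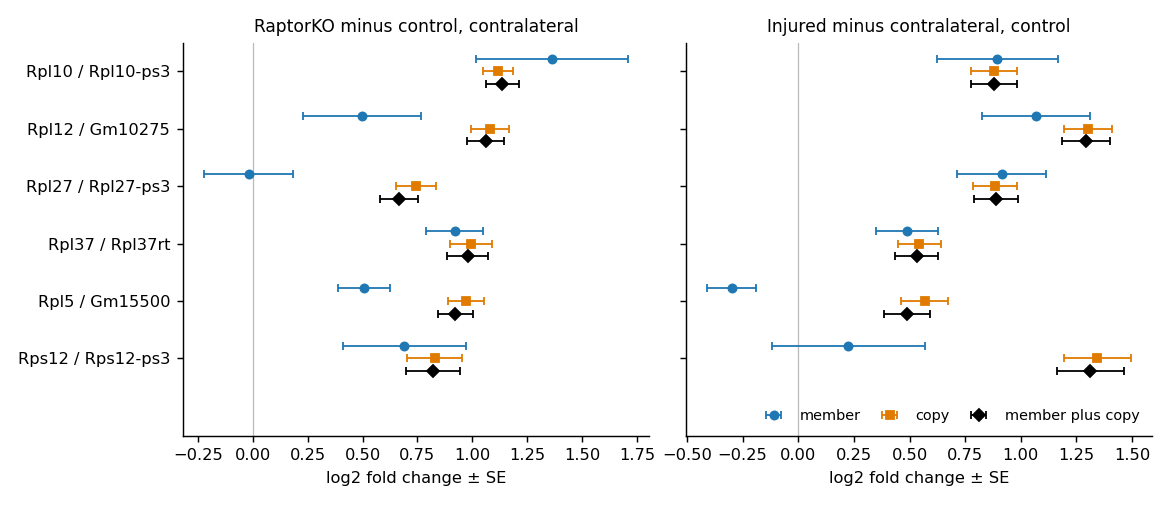
Log2 fold changes (± SE, edgeR) of the 6 genes whose near-identical copies held over 50% of the joint counts, for the gene alone, its most abundant copy and their sum, in contralateral nerves (RaptorKO minus control, left) and in control nerves (injured minus contralateral, right). Rpl27 alone lay at -0.02 on the left and Rpl5 alone at -0.30 on the right, while all 6 sums lay above 0 in both panels.

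The second comparison asked for the same difference in the injured nerve at 5 dpc. The genes were again higher in RaptorKO, by less: 56 of the 80 were called higher and 0 lower, beside 4.09% and 4.44% of 12040 genes called higher and lower overall. The median log2 fold change was 0.55, or 1.46-fold, with quartiles at 0.46 and 0.65, beside 0.00 over all tested genes. In 68 genes all RaptorKO libraries lay above all control libraries, compared with 11.7% of genes tested. By subunit, 34 of 48 large and 22 of 32 small subunit genes rose, with medians of 0.53 and 0.56. The count depended on single libraries, since it fell to 18 without control injured replicate 2, to 22 without RaptorKO injured replicate 1 and to 24 without control injured replicate 1, while the median stayed between 0.49 and 0.62.

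In injured nerves 5 of 5 endothelial markers were higher in RaptorKO (205 to 310 CPM in control and 362 to 561 CPM in RaptorKO libraries, summed over the list) and 4 of 5 pericyte and smooth muscle markers were higher (438 to 531 and 842 to 1133 CPM). Also higher were 5 of 6 mast cell markers (8.71 to 52.7 and 107 to 199 CPM), 3 of 3 erythrocyte markers tested (5.94 to 24.8 and 46.3 to 75.5 CPM) and 2 of 5 fibroblast markers, whose sums overlapped (5073 to 7251 and 6522 to 9746 CPM). Of the proliferation markers 4 of 5 were lower (1205 to 1352 and 686 to 764 CPM), Mki67 among them, which was higher in contralateral RaptorKO nerves. The T and NK cell list summed to 26.7 to 60.2 and 2.83 to 4.44 CPM, and its 1 tested gene, the granzyme gene Gzmb, was lower by a log2 fold change of -4.88. No macrophage marker of 7 passed (2687 to 3274 and 1755 to 3590 CPM). Of the SC and myelin markers 2 of 9, again with S100b among them, were lower (3629 to 4460 and 2698 to 3279 CPM). The part of these cells in the values of the ribosomal protein genes was not tested.

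The genes at the top were Rpl32, Rpl4, Rpl36a and Rps18. Rpl32, of the large subunit, was at 327, 338 and 351 CPM in control and 623, 582 and 542 CPM in RaptorKO injured nerves, a log2 fold change of 0.80 ± 0.11 (adjusted p = 0.00168). Rpl4 was at 740, 800 and 847 CPM against 1343, 1416 and 1324 CPM, a log2 fold change of 0.79 ± 0.11 (adjusted p = 0.00209). Neither gene's groups came near each other. Rpl36a and Rps18 had log2 fold changes of 0.79 ± 0.13 and 0.77 ± 0.13, with adjusted p of 0.00488 and 0.00485.

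Rps6 rose by 0.63 ± 0.12 on the log2 scale (adjusted p = 0.0104), from 613, 718 and 724 CPM to 1024, 1135 and 982 CPM. The stalk genes divided: Rplp1 (0.59 ± 0.13, adjusted p = 0.0174) and Rplp2 (0.76 ± 0.19, adjusted p = 0.0304) rose, and Rplp0 had a log2 fold change of 0.34 ± 0.12 that did not pass (adjusted p = 0.135). Rplp0 libraries nevertheless did not overlap, at 1266, 1448 and 1386 CPM in control and 1836, 1796 and 1486 CPM in RaptorKO.

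The lowest 4 were Rps27l, Rpl27, Rpl7l1 and Rpl41. Rps27l had a log2 fold change of -0.18 ± 0.17 (adjusted p = 0.625), with 34.3, 39.4 and 48.7 CPM in control and 30.5, 42.5 and 33.8 CPM in RaptorKO. Rpl41, the shortest ribosomal protein, was at 529, 683 and 674 CPM against 684, 844 and 558 CPM, overlapping groups with a log2 fold change of 0.16 ± 0.17 (adjusted p = 0.659). Rpsa (0.24 ± 0.12, adjusted p = 0.292) and Rps2 (0.35 ± 0.14, adjusted p = 0.175), a protein of the mRNA entry site, overlapped between genotypes as well. The share of Rps27l in Rps27 plus Rps27l was 11.6 to 15.1% in control and 8.21 to 10.04% in RaptorKO injured nerves, and the ranges did not overlap.

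Over both sides, 55 genes rose in each genotype comparison, 19 were called in contralateral nerves alone, 1 (Rpl12) in injured nerves alone and 5 in neither. The 2 comparisons have no library in common, but their libraries may come from the same mice. Across the 80 genes their log2 fold changes were related with Pearson's r = 0.79 and Spearman's rho = 0.72, given as a description, since genes of a set that moves together are not independent.

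**Figure D3:**
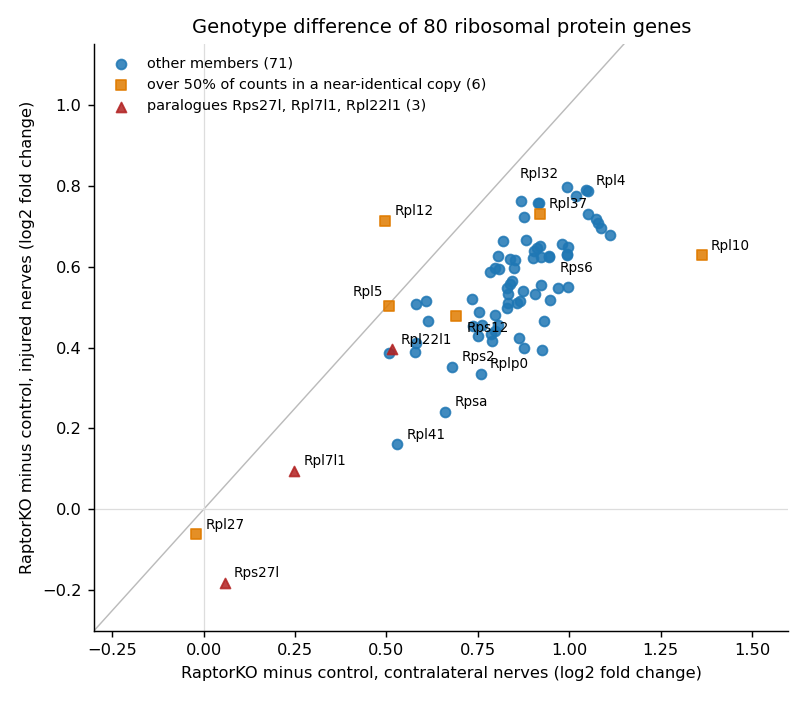
Genotype difference of each of the 80 genes in contralateral (horizontal) and injured (vertical) nerves, both as log2 fold change of RaptorKO over control; the diagonal marks equal values. Squares are the 6 genes with over 50% of joint counts in a near-identical copy and triangles the 3 paralogues; all points but Rpl12 lie below the diagonal.

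Whether the genotype difference itself changed with injury was tested with an interaction term over all 13 libraries. The log2 interaction was below 0 for 79 of the 80 genes, with a median of -0.28 beside -0.01 over all 12851 tested genes. No single gene passed in the main test: edgeR called 0 of the 80, beside 1.41% of all tested genes called lower and 1.07% higher. An unadjusted p below 0.05 was found for 27 of the 80, beside 1826 of the 12851 genes. DESeq2 called 8 of the 80 lower, and its share over all genes is not given here. The lowest adjusted p were those of Rpl23a (-0.46 ± 0.12, adjusted p = 0.0562), Rpl29 (-0.53 ± 0.14, adjusted p = 0.0579) and Rps3 (-0.47 ± 0.13, adjusted p = 0.0736). Rpl29, a heparin-binding protein of the large subunit, was at 150, 137 and 151 CPM in control and 250, 282, 283 and 279 CPM in RaptorKO contralateral nerves, and at 331, 387 and 359 against 477, 511 and 411 CPM in injured nerves. With copies summed, Rpl10 passed (-0.50 ± 0.12, adjusted p = 0.0386). A smaller genotype difference in injured nerves was therefore not shown for any 1 gene by the main test as counted.

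The comparisons of injured with contralateral nerves describe the same genes after crush within each genotype. In control nerves 75 of the 80 rose and 1 (Rpl5) fell, beside 32.4% and 32.9% of 12430 genes called higher and lower, so a call alone is common here. The median log2 fold change was 0.79, beside 0.00 over all tested genes, and it was 0.62 with a trend on gene length removed. Scaling by library totals raised it to 0.99 and the median of all tested genes to 0.20. In RaptorKO nerves 61 rose and 0 fell, beside 30.5% of 12515 genes called higher, with a median of 0.49, or 0.34 with the length trend removed. Every gene called higher in RaptorKO nerves was also called higher in control nerves, and 14 were called in control nerves alone.

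In control nerves the 4 genes with the highest values after crush were other genes than the 4 highest in either genotype comparison. Rps2 went from 319, 276 and 293 CPM in control contralateral to 769, 965 and 873 CPM in control injured nerves, a log2 fold change of 1.53 ± 0.12 (adjusted p = 2.63e-07). Rpsa had a log2 fold change of 1.49 ± 0.10 (adjusted p = 8.38e-08), Rplp0 of 1.47 ± 0.10 (adjusted p = 1.05e-07) and Rps27l of 1.33 ± 0.15 (adjusted p = 1.11e-05). In RaptorKO nerves the values of these 4 genes were 1.22 ± 0.12, 1.10 ± 0.10, 1.07 ± 0.10 and 1.11 ± 0.16, and Rpl12, most of whose counts lie in its copy, stood above them at 1.30 ± 0.22. Rps27l thus rose after injury in both genotypes and passed no genotype test.

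Apart from Rpl5 and Rps12, whose counts lie mostly in copies, the lowest values after injury in controls were those of Rps27, Rpl3, Rpl22 and Rpl4. Rpl4 had a log2 fold change after injury of 0.27 ± 0.10 in control (adjusted p = 0.0327) and of 0.03 ± 0.08 in RaptorKO nerves (adjusted p = 0.742), compared with genotype differences of 1.05 and 0.79. Rpl3, which shapes the peptidyl transferase centre, had 0.23 ± 0.10 (adjusted p = 0.0535) and 0.02 ± 0.11 (adjusted p = 0.877) after injury, and rose by 0.85 ± 0.09 and 0.62 ± 0.12 with genotype. Its libraries lay at 467, 480 and 463 CPM in control contralateral, 844, 933, 792 and 781 in RaptorKO contralateral, 525, 579 and 583 in control injured and 912, 897 and 750 CPM in RaptorKO injured nerves. Rps27 had 0.13 ± 0.12 and 0.00 ± 0.16 after injury, neither of which passed. With Rps27rt added the values were 0.13 ± 0.11 and -0.09 ± 0.11, and again neither passed. Across the 80 genes, the injury values in the 2 genotypes, which share no library, were related with r = 0.92 and rho = 0.93. Genotype and injury comparisons share libraries, so no relation between them is given.

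Rpl5 was the single gene called lower after injury in controls, from 40.7, 38.5 and 38.6 CPM to 32.7, 32.1 and 32.7 CPM (log2 fold change -0.30 ± 0.11, adjusted p = 0.032). Its copy Gm15500 went from 2966, 3700 and 3157 counts to 4496, 4884 and 4792 counts, a log2 fold change of 0.57 ± 0.11 (adjusted p = 4.90e-04). With both summed the direction of Rpl5 turned, to 0.49 ± 0.10 (adjusted p = 0.00123).

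**Figure D4:**
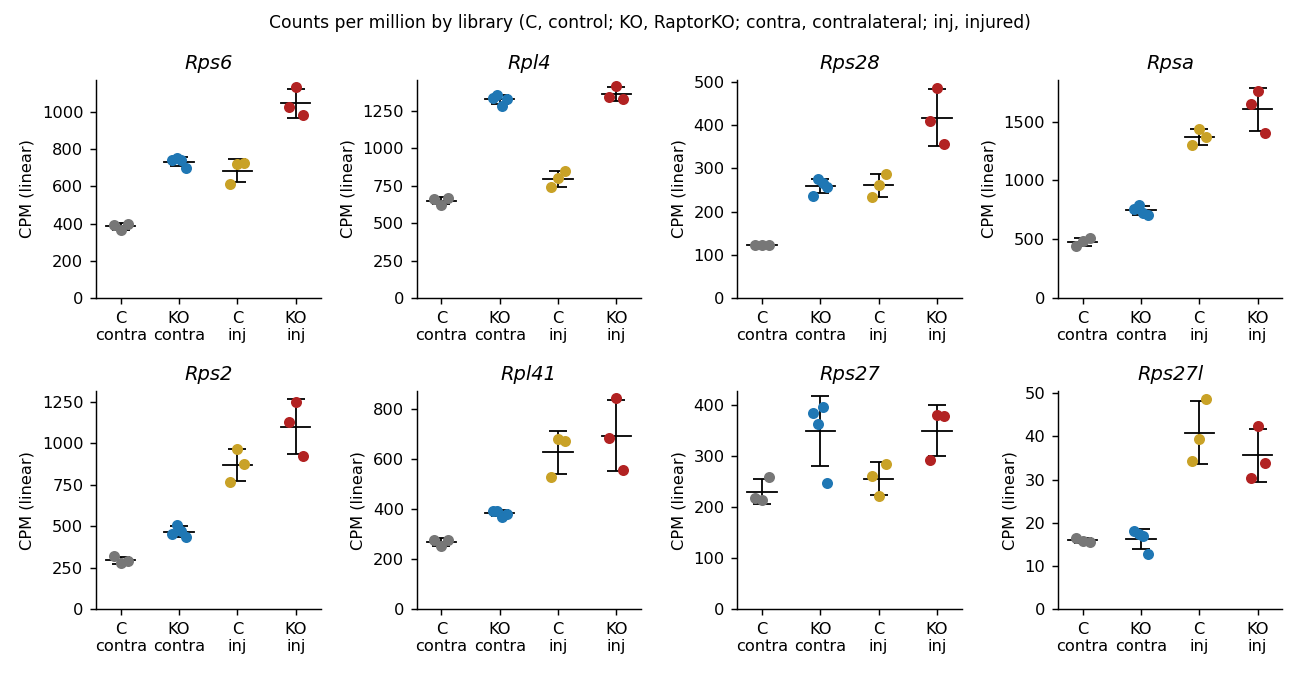
CPM (linear axes from 0) of 8 genes in every library; points are libraries, horizontal bars means and vertical bars ± SD. Rpl4 in RaptorKO contralateral nerves (1282 to 1354 CPM) lay above all injured control libraries (740 to 847 CPM), while Rpsa in the same nerves (710 to 793 CPM) lay below them (1304 to 1438 CPM).

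RaptorKO nerves without injury and control nerves with injury, whose total shares overlapped, were set side by side gene by gene. Mean CPM was higher in RaptorKO contralateral than in control injured nerves for 49 of the 80 genes, beside 49.5% of the 12851 genes tested over all libraries. For 22 genes all RaptorKO contralateral libraries lay above all control injured libraries, Rpl4 among them, beside 30.7% of all these genes. For 12 genes, Rpsa and Rps2 among them, all lay below, beside 32.4%. This pair of groups differs in both genotype and injury and was not tested. RaptorKO injured nerves had the highest mean of the 4 groups for 76 of the 80 genes, beside 23.4% of all genes tested, and control contralateral nerves the lowest for 78, beside 30.1%.

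Genes of the same pathway were read from lists described by counts only. Among all tested genes 4.49% were called higher in contralateral and 4.09% in injured nerves, and 1.41% had an interaction called lower. Among translation factors with TOP mRNAs, 15 of 18 rose in contralateral nerves, with a median log2 fold change of 0.76, and 7 of 18 rose in injured nerves, with a median of 0.36. Eef1a1, which delivers aminoacyl-tRNA, rose by 1.29 ± 0.10 (adjusted p = 6.21e-05) and 0.75 ± 0.10 (adjusted p = 0.00134), and Eef2, which drives translocation, by 0.96 ± 0.08 (adjusted p = 7.68e-05) and 0.61 ± 0.12 (adjusted p = 0.0114). The initiation factor subunit Eif3a was at 0.20 ± 0.07 (adjusted p = 0.123) and 0.09 ± 0.14 (adjusted p = 0.777), and neither passed. Of 18 of these factors, 3 had an interaction called lower.

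Among fusion genes and ribosome-bound partners, 5 of 7 rose in contralateral and 2 of 7 in injured nerves. Rack1, a scaffold on the small subunit, rose by 0.93 ± 0.08 (adjusted p = 1.10e-04) and 0.70 ± 0.13 (adjusted p = 0.00668). Fau, which encodes the small subunit protein Rps30 fused to a ubiquitin-like protein, was at 0.28 ± 0.22 (adjusted p = 0.496) and -0.19 ± 0.22 (adjusted p = 0.715). Its mean level was low, at 12.2 CPM in control and 14.6 CPM in RaptorKO contralateral nerves, and 17.4 and 15.1 CPM in injured nerves. Near-identical copies of Fau were not looked for.

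Mitochondrial ribosomal proteins belong to a separate ribosome. Of 78, 1 rose in contralateral nerves and 0 in injured nerves, beside 4.49% and 4.09% of all tested genes called higher. The medians were 0.06 and -0.03. An unadjusted p below 0.05 was found for 5 and 8 of the 78, beside 2955 of 11878 and 2594 of 12040 genes tested. After injury 30 of 78 rose and 4 fell in controls, beside 32.4% and 32.9% of all tested genes called higher and lower. Genes of RNA polymerase I and the nucleolus, which make and process ribosomal RNA, were divided: 7 of 17 rose in contralateral nerves and 3 of 18 in injured nerves. Npm1 and Ncl, abundant nucleolar chaperones, rose on both sides, Npm1 by 1.14 ± 0.07 (adjusted p = 5.35e-05) and 0.80 ± 0.12 (adjusted p = 0.00311).

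Regulators of TOP mRNAs and of mTORC1 output gave few calls. Higher calls were 1 of 18 on each side, near the 4.49% and 4.09% of all tested genes called higher in contralateral and injured nerves. Of 18, 1 rose in contralateral nerves, Eif4ebp1 (0.61 ± 0.17, adjusted p = 0.0449), a translation repressor that mTORC1 phosphorylates, and Rptor fell. In injured nerves Myc, a transcription factor known to drive ribosome production, was the 1 gene that rose (0.83 ± 0.12, adjusted p = 0.00177). Larp1 was at 0.23 ± 0.09 (adjusted p = 0.144) and 0.14 ± 0.11 (adjusted p = 0.531), and neither passed.

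**Figure D5:**
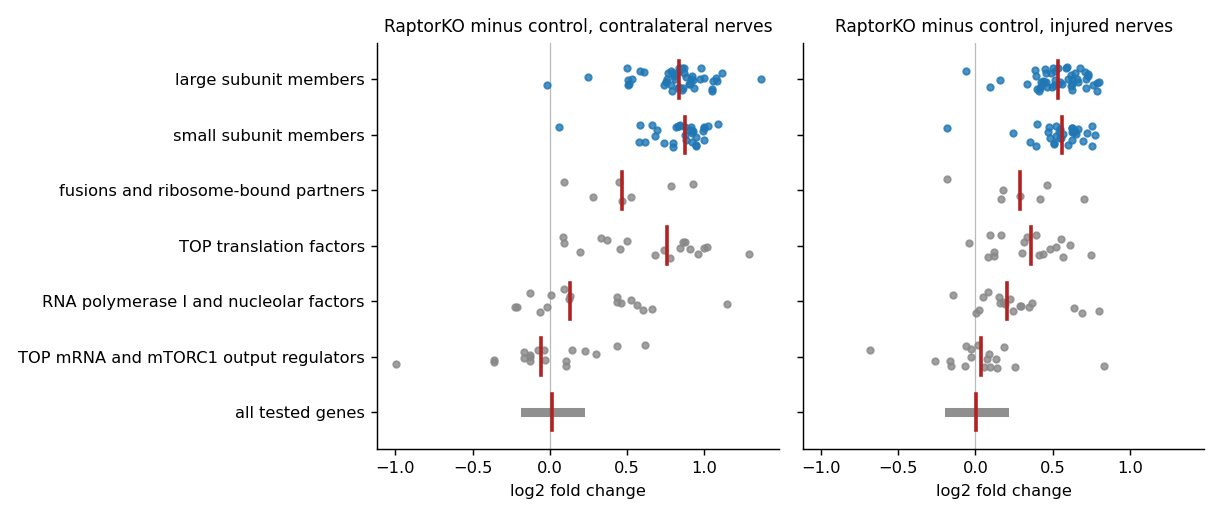
Log2 fold change of RaptorKO over control for each gene of the large and small subunit (upper rows) and of 4 related gene lists, in contralateral (left) and injured (right) nerves. Points are genes, red bars are medians, and the grey bar of the lowest row spans the quartiles of all tested genes; the subunit medians were 0.84 and 0.88 on the left and 0.53 and 0.56 on the right.

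Genes with and without a TOP-like tract at the annotated start had medians close to each other, and most of both rose in contralateral nerves. In contralateral nerves the median log2 fold change was 0.80 for the 29 genes with such a tract and 0.86 for the 31 without, of which 26 and 28 rose. In injured nerves the medians were 0.55 and 0.51, with 19 and 20 called higher. Annotated starts can miss the base where transcription begins, so a gene listed without a tract may still make TOP mRNA. Other letters searched on both strands of the 300 bases were CCGGAAG, the core bound by ETS factors, in 25 of 60 genes (41.7%) beside 9.93% of all genes in the table; AAGATGG, part of the YY1 site, in 10 (16.7%) beside 7.28%; CACGTG, the E-box, in 6 (10%) beside 8.09%; and TATAAA in 7 (11.7%) beside 15.7%. Median log2 fold changes in contralateral nerves were 0.84 with CCGGAAG and 0.83 without it.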

How the data were processed

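Expected counts per gene were deposited for all 13 libraries in 1 table. Per the labels and the study's methods, total RNA of whole nerve was prepared with a TruSeq kit, sequenced single-end on an Illumina HiSeq, trimmed with Trimmomatic and quantified by the authors with RSEM 1.2.22 against GRCm38. The annotation release and the use of strand in counting were not given in the sources used here. RSEM divides reads that match several loci, and between 40 and 55% of the members' values per library were not whole numbers. Expected counts were rounded before testing.

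Gene IDs were matched to GENCODE M21 (40550 of 40787 matched). Genes with at least 50 counts in at least 2 libraries of a comparison were tested with edgeR 4.0.16 in R 4.3.3 (glmQLFit and glmQLFTest, TMM scaling), separately for each pair of groups, and the interaction over all 13 libraries. Genes were called at a Benjamini-Hochberg adjusted p below 0.05 over all tested genes and a fold change above 1.2. CPM were scaled by TMM over all libraries, and SE refers to the log2 fold change. The quasi-likelihood test stands in for the exact test of edgeR that the study used, which was run as an alternative, as were DESeq2 1.42.0 and others named below. The code was tested on simulated counts. Near-identical copies were found with BLAST 2.17.0. All sequenced samples were used, and no value column was left unmapped. The members and the gene lists were chosen with earlier results of these data known. The genes named are, in each comparison, the 4 highest and 4 lowest members, members with a fixed role, paralogue pairs and those not called in contralateral nerves, apart from a few genes that are not reported here; Rpl8, Rps15a and Rpl9 at the low end, and pathway genes, were named after their values were seen. Per the study, the libraries of a group came from different mice, and injured nerves were sequenced together with the corresponding contralateral nerves. The sample titles number both sides alike, but whether equal numbers mark 1 mouse was not stated. The main fits treated the libraries of both sides as independent, so any pairing by mouse was left out of them. Depth was 8200458 to 13581775 counts per library.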

Additional observations from a re-analysis of the deposited data

Results flagged for a closer look

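In the group of 4 RaptorKO contralateral libraries, 1 library stood apart from the other 3 for 4 of the 35 genes tested by Dixon's criterion, where chance gives about 1.75. For Rpl21 the highest library held 1084 CPM and the other 3 between 989 and 999.8 CPM. For Rpl36a the highest held 152 CPM and the others between 131 and 134 CPM. Both were RaptorKO contralateral replicate 2, which also had the highest share of counts in ribosomal protein genes, 3.11%. For Rpl29 the lowest library, replicate 1, held 250 CPM and the others between 279 and 283 CPM. For Rpl7l1 the lowest, replicate 4, held 36.2 CPM and the others 38.6 CPM each. Without replicate 2 the median log2 fold change in contralateral nerves was 0.80 with 72 genes called higher, and without any 1 of the 4 libraries it was between 0.80 and 0.88.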

How the results depend on the processing

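In contralateral nerves 69 to 77 genes were called higher over 12 alternatives and 69 to 74 when 1 library was left out, with medians of 0.80 to 0.90. In injured nerves the count was 14 at an adjusted p below 0.01, reached 70 with DESeq2 and ranged from 18 to 64 when 1 library was left out. Interaction calls, 0 in the main test, were 8 lower with DESeq2, 2 with the length trend, and 1 each with library totals, the replicate block and copies summed (for 6 genes or for every gene with copies; 0 to 2 when 1 library was left out). For injury in control nerves the 1 lower call (Rpl5) became 0 with DESeq2, all 13 libraries, library totals, no filter, the stricter p, copies summed or both control 3 libraries left out (0 to 1 when 1 library was left out), and medians were 0.62 with the length trend and 0.99 with library totals; in RaptorKO nerves they were 0.34 and 0.65. Without mitochondrial and the 10 most abundant other genes the shares were 1.96, 3.59, 3.62 and 5.30%, and with copies 1.66 and 3.12% in the contralateral groups. Summing copies turned Rpl27 to 0.67 (contralateral) and 0.46 (injured), and Rpl5 to 0.49 (control) and 0.26 (RaptorKO) after injury. Same-numbered injured and contralateral libraries correlated at 0.07, 0.13 and 0.30 in control and at -0.02, 0.21 and 0.17 in RaptorKO nerves. Same-numbered libraries of different genotype, which are different mice, correlated between -0.05 and 0.30. These ranges overlap, so the values could not settle whether equal numbers mark 1 mouse, and the main fits used no pairing. A replicate block in the genotype comparisons joined different mice of equal number. With it 42 genes were called in injured and 74 in contralateral nerves. Of the single-gene results, 2279 kept direction and call, 111 lost and 43 gained the call and 8 turned. Unless stated, the cause was not tested. Limits on these results include groups of 3 or 4 libraries and reads shared among copies.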
